A study of Mus musculus with 22 samples.

Results

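The mouse microRNAs (miRNAs, short RNAs that lower the output of the mRNAs they pair with) from miR-676 to miR-721 were examined in small intestine, serum and feces. The members are all miRNAs on the array whose number lies in that range, with any letter or arm, which gave 50 of the 1881 mouse miRNAs measured. The range was chosen with earlier dose results in view, and 5 of its members (miR-680, miR-690, miR-709, miR-714 and miR-721) had been singled out from them. The values of those 5, and the members' dose changes in intestine and feces, are therefore given as a description, without a p-value. At the edges of the range, miR-675-3p, miR-675-5p, miR-676-3p and miR-676-5p were detected on 0 of the 22 arrays, as were the next miRNAs above it, miR-741-3p and miR-741-5p, while miR-721 was detected on 16.

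RNA came from male mice aged 8 weeks that had received X-rays at 1 Gy per minute to a dose of 10 Gy, or 0 Gy as the control. The small intestine and the feces each had 4 arrays per dose, and serum had 2 arrays at 0 Gy and 4 at 10 Gy. Each array held the Cy3-labelled total RNA of 1 sample. The strain, the time between irradiation and collection, and whether each sample stands for its own animal are not given in the sources used here, so p-values measure only how far these samples differ among themselves, which may be technical in part. The 3 slides each held a single sample type, whose effect cannot be told apart from that of the slide. The unirradiated samples lay in columns 1 and 2 of their slide (serum in column 2 alone) and the irradiated ones in columns 3 and 4. The effects of dose and column cannot be told apart for this reason, but both doses were present in each of the 2 rows.

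As background, a miRNA recognises its target mRNAs mainly through its seed, bases 2 to 8 from the 5′ end, and miRNAs with the same seed share most predicted targets. Numbers are given in order of discovery, so neighbouring numbers imply no common gene, seed or function. Much of this range entered the catalogue from cloning of small RNAs of mouse embryos, and several entries have been questioned as miRNAs since. miR-712, for example, is known to derive from the precursor of ribosomal RNA, and miR-709 has been described as enriched in the nucleus.

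RefSeq (GRCm38.p6) gave mature sequences for 42 of the 50 members. Those of miR-676-5p, miR-684, miR-694, miR-696, miR-709, miR-712-3p, miR-712-5p and miR-714 were not matched, and these miRNAs are named only. The 42 sequences had 42 distinct seeds, so 0 seeds were shared between members, and 7 members shared a seed with a miRNA outside the range. The largest of these groups is that of miR-721, whose seed is that of the miR-130 and miR-301 family. It is shown with 3 relatives that the arrays detected, written 5′ to 3′ with the seed in capitals:
miR-721: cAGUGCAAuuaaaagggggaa
miR-130a-3p: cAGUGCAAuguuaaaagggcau
miR-130b-3p: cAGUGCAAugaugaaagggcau
miR-301a-3p: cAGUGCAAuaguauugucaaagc

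Of the members that were high in feces, miR-678 and miR-718 have longest runs of 2 and 3 G and are not shown. The next 4 were picked because each carries a run of at least 4 G, as miR-721 does:
miR-680: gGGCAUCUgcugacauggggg
miR-705: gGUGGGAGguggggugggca
miR-710: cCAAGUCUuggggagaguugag
miR-711: gGGACCCGgggagagauguaag
The 3 members that were high in intestine have other seeds and no such run:
miR-690: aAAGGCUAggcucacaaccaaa
miR-706: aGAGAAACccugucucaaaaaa
miR-677-3p: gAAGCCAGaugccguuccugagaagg
In that annotation, whose table gives no strand, 36 of the 42 lie within the span of another gene. miR-721 lies in Cux1 (a homeobox transcription factor), miR-690 in Fgf12 (a fibroblast growth factor homologue), miR-706 in Wnk1 (a kinase that controls ion transport), miR-677 in Atp5b (the beta subunit of mitochondrial ATP synthase), miR-705 in Rab11fip5 (a Rab11 effector) and miR-711 in Col7a1 (type VII collagen). miR-680 and miR-710 overlap no other gene, and miR-680 has 3 loci. The files' array design names another build, so no coordinates are given.

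The arrays detected between 285 and 300 miRNAs in intestine at 0 Gy and between 332 and 389 at 10 Gy, between 378 and 675 in feces over both doses, and between 131 and 219 in serum. No spot was saturated. Correlations between arrays of 1 sample type were at least 0.904. All 10 markers of intestinal epithelium were detected on every intestine array, with 14.6% to 22.1% of the summed signal at 0 Gy and 9.96% to 14.9% at 10 Gy. In feces 8 of the 10 were detected on every array, with at most 0.833% of the signal, and miR-31-5p on none, and in serum 1 of the 10 was (miR-375-3p). All 4 smooth muscle markers were detected on every intestine array, 1 of 4 in feces and, at 0 Gy, 2 of 4 in serum. Of the 5 leukocyte markers, 5 were detected on every 0 Gy intestine array and 4 at 10 Gy, and 0 on every feces or serum array. miR-122-5p, the abundant liver miRNA, was detected on no array. Of 2 endothelial markers, miR-126a-3p was detected on every intestine array and neither in feces or serum. Of 3 neuronal markers, 0 were detected on every array of any group except miR-218-5p in irradiated intestine.

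Many members were silent on these arrays: 25 (50%) were detected on none of them, beside 54.5% of all miRNAs. Another 8 were detected on some arrays of a group only (miR-688, miR-691, miR-695, miR-696, miR-698-5p, miR-700-5p, miR-701-5p and miR-703), each on between 1 and 3 arrays. The other 17 were detected on every array of at least 1 group, and miR-709 and miR-712-5p on all 22 arrays. Detection on an array means here that 1 probe or more had at least 50% of its spots well above background. In unirradiated intestine 5 members (10%) were detected on every array, where 14.7% of all miRNAs were. In unirradiated feces it was 12 (24%, all miRNAs 19.4%), and in unirradiated serum 6 (12%, all miRNAs 9.09%).

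Counted per array, the members detected in intestine were 6, 5, 5 and 5 at 0 Gy and 11, 17, 12 and 12 at 10 Gy. In feces they were 15, 12, 23 and 17 at 0 Gy and 15, 16, 17 and 15 at 10 Gy. In serum they were 10 and 6 at 0 Gy and 6, 4, 6 and 4 at 10 Gy. The intestine counts did not overlap between doses, on arrays that also detected more miRNAs of all kinds at 10 Gy, and the part of that rise in the members' counts was not tested. In serum the mean difference of -3 members did not exceed the spread between arrays (exact two-sided permutation p = 0.267, where 0.0667 is the smallest that 2 against 4 arrays allow). Detected probes show only that signal passed the background, and in bulk samples fewer cells of a type and less RNA per cell cannot be told apart.

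The members' share of an array's summed signal was between 0.67% and 1.44% in intestine, between 1.00% and 1.87% in feces and between 4.63% and 7.88% in serum. The serum share was mostly that of 1 member, miR-709. A share is a share of fluorescence, and probes differ in brightness, so it is used here to set 1 miRNA against itself in different samples and not to rank miRNAs. It needs no reference set, which the scaled signal does. The scaled signal used below is a miRNA's signal as a percentage of its array's reference, the 75th percentile of those miRNAs that every array of the sample type detected, and is comparable within a sample type only.

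**Figure D1:**
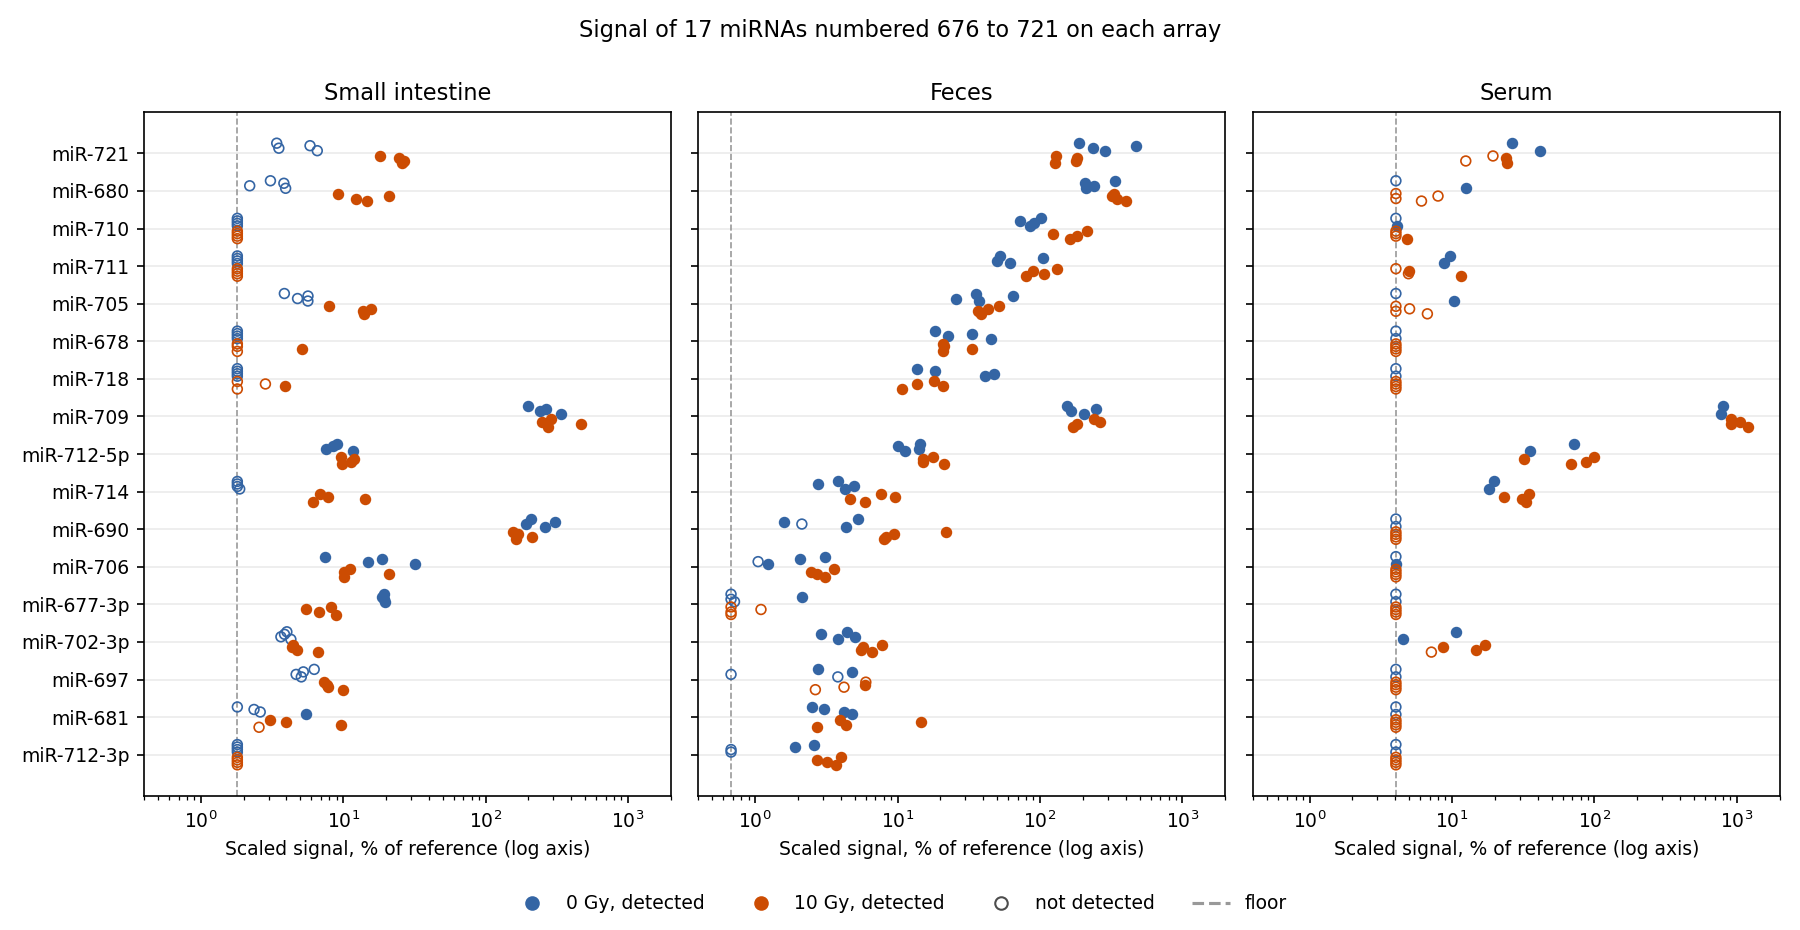
Scaled signal (percent of each array's reference, log axis) of the 17 members detected on every array of at least 1 group, with 1 point per array, blue for 0 Gy and orange for 10 Gy. Open points were not detected, and values under the dashed floor are drawn on it. The upper 7 members are bright in feces and near or below detection in unirradiated intestine, and miR-690, miR-706 and miR-677-3p show the opposite.

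Grouped by where they were brightest, a grouping made after their values were seen, 7 members leaned to feces (miR-721, miR-680, miR-710, miR-711, miR-705, miR-678 and miR-718). All 7 were detected on 8 of 8 feces arrays and on 0 of 4 unirradiated intestine arrays. The share of signal of miR-721 was 0.26% to 0.699% in unirradiated feces and 0.00519% to 0.00938% in unirradiated intestine, and that of miR-680 was 0.247% to 0.514% against 0.00363% to 0.00615%. Neither overlapped between the sample types. Between unirradiated feces and intestine, in 1 fit of all 6 groups, miR-721 was at least 5.97-fold and miR-680 at least 5.44-fold higher in feces (log2 differences of 3.80 ± 0.258 and 4.15 ± 0.479, or 0.51 and 0.36 with normexp). A fold is written "at least" where the dimmer group was not detected on any array, and then rests on the lowest signal of a detected probe there.

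miR-710 had a share of 0.0987% to 0.155% in unirradiated feces and a background-subtracted signal below 0 on every intestine array. Like miR-711, miR-678 and miR-718 it entered the comparison through the arrays where it is high, so no p-value is given, and no fold bound above 1 was reached. Against the floor, the fitted log2 differences of feces from intestine were 3.92 ± 0.325 for miR-710 (SE, 4 against 4 arrays), 3.48 ± 0.355 for miR-711, 2.29 ± 0.299 for miR-678 and 2.21 ± 0.362 for miR-718. Their probes gave far less, 0 to 2.16, 0 to 2.26, 0.0579 to 0.207 and 0 to 0.724 in that order. With normexp background correction the same differences turned to -0.62 for miR-710, -1.0 for miR-711, -1.29 for miR-678 and -1.22 for miR-718. miR-705, whose sequence is 70% G, was detected on every feces array, with a fitted difference of 0.86 ± 0.378 without overlap and 0.0803 to 0.667 over its probes. It was not called in this fit. Of 17 alternatives 7 called it, among them normexp, which called it lower in feces (-1.42).

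In the opposite group, miR-690, miR-706 and miR-677-3p leaned to intestine. miR-690 was detected on 8 of 8 intestine arrays and took 0.313% to 0.489% of the signal in unirradiated intestine, against 0.00235% to 0.00817% in unirradiated feces, where 3 of 4 arrays detected it. It was detected on 0 of 6 serum arrays and was at least 39.6-fold lower in unirradiated serum than in intestine. miR-677-3p was detected on 8 of 8 intestine arrays, 1 of 8 feces arrays and 0 of 6 serum arrays. It was at least 8.22-fold lower in unirradiated serum than in intestine, and its fitted log2 difference of feces from intestine was -3.86 ± 0.197, with -3.34 for its detected probe. For miR-706, detected on 8 of 8 intestine arrays, the fitted differences were -3.60 ± 0.248 in feces and -3.21 ± 0.304 in serum (-0.59 with normexp, which did not pass). Feces and serum values of these members lay mostly at the floor, so no p-value is given. All 3 kept a negative feces difference in each of 17 processing alternatives, but its size depended on them. The smallest was -3.54 for miR-690, -0.82 for miR-706 and -1.06 for miR-677-3p. In serum the smallest of 15 alternatives was -3.35 for miR-690 and -0.87 for miR-677-3p.

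miR-709, miR-712-5p and miR-714 leaned to serum. miR-709 took 3.95% and 4.07% of the signal on the unirradiated serum arrays, against 0.301% to 0.477% in unirradiated intestine and 0.181% to 0.365% in unirradiated feces. These serum shares lay far above all others, and the intestine and feces shares overlapped. The unscaled signal of miR-709 was 1784 and 3997 in unirradiated serum, within the 866 to 6497 of unirradiated feces, and 1023 to 1500 in unirradiated intestine. A share also depends on the summed signal, whose mean was 71720 in unirradiated serum, 1016000 in feces and 321500 in intestine. On the jointly scaled signal it was higher in serum than in intestine by 1.17 ± 0.198. miR-712-5p, the fragment of the ribosomal RNA precursor, took 0.185% and 0.357% in serum and 0.0124% to 0.0164% in intestine, a log2 difference of 2.02 ± 0.378 (2 against 4 arrays, limma adjusted p = 0.00018). miR-714, detected on every serum and feces array but on 0 of 4 unirradiated intestine arrays, was at least 1.55-fold higher in serum than in intestine. With normexp the serum differences of miR-712-5p and miR-714 were 0.33 and 0.08 and no longer passed.

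Some differences between feces and intestine depended on the scaling. Scaled over the 81 miRNAs detected on all arrays, miR-709 was lower in feces by -2.54 ± 0.162 and miR-712-5p by -1.67 ± 0.309, but without scaling they were 0.82 and 1.70 higher. Their shares of signal overlapped between the sample types, at 0.255% ± 0.0779 in feces and 0.399% ± 0.0738 in intestine for miR-709 (SD, n = 4 each), and 0.0164% ± 0.00389 and 0.0141% ± 0.00168 for miR-712-5p. Calls of miR-681, miR-697 and miR-702-3p as lower in feces set feces values at the floor against intestine signals that were not detected on 3, 4 and 4 of the 4 arrays, so no direction is read from them.

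Over all members tested between unirradiated feces and intestine, 6 of 21 were called higher and 8 lower, 66.7% in all, where limma called 59.5% of the 749 miRNAs tested (24.3% higher and 35.2% lower). The arrays of 14 did not overlap, beside 56.2%. Between unirradiated serum and intestine 5 of 21 were higher and 4 lower (42.9%), beside 46.5% of the 749 (17% higher and 29.5% lower), and 9 did not overlap, beside 51.9%. The members' share of calls was thus near the background in both. Between serum and intestine, 8 of the 21 were detected in neither group. Among the higher calls in serum, miR-721 was at least 2.3-fold and miR-711 at least 2.24-fold higher, with fitted log2 differences of 2.38 ± 0.316 and 2.34 ± 0.435, which became 0.25 and 0.04 with normexp.

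**Figure D2:**
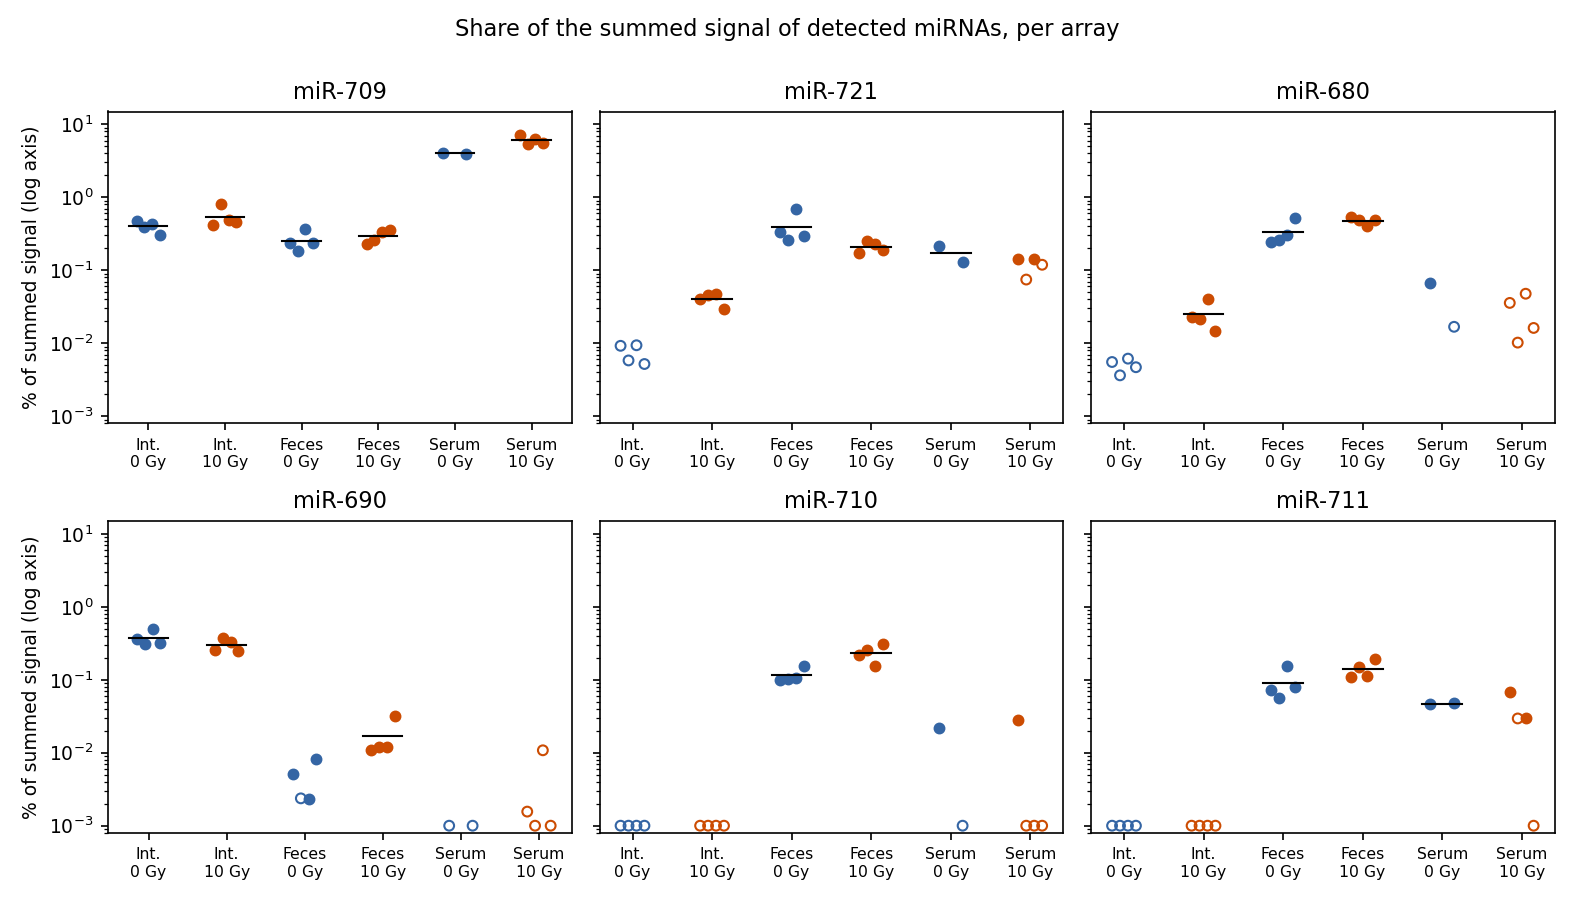
Share of the summed signal of detected miRNAs (percent, log axis) for 6 members in the 6 groups, with 1 point per array and a line at the mean where every array of a group detected the miRNA. Open points were not detected, and shares below the axis are drawn near its lower edge. miR-709 stands at 3.95% to 7.05% in serum, miR-721, miR-680, miR-710 and miR-711 are highest in feces, and miR-690 is highest in intestine.

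In irradiated intestine, 3 of the singled-out members passed from not detected on any array to detected on every array. The scaled signal of miR-721 was 6.59, 3.54, 5.86 and 3.42 at 0 Gy and 25.9, 26.6, 24.6 and 18.3 at 10 Gy. Its 10 Gy arrays all lay above its 0 Gy arrays, at least 2.18-fold, and the fitted change was 2.34 ± 0.241 on the log2 scale (SE, 4 against 4 arrays), with 1.34 to 1.56 over its 4 probes. miR-680 went from 3.95, 2.21, 3.84 and 3.09 to 14.7, 12.4, 21.0 and 9.19, at least 1.29-fold, with a change of 2.10 ± 0.264 and 0.585 to 0.747 over its 4 probes.

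For miR-714 the 0 Gy values were 1.88, 0.822, 1.12 and -0.0304, around the floor of 1.81, and the 10 Gy values 6.16, 14.3, 7.81 and 6.87. That is at least 2.33-fold higher and a fitted change of 2.19 ± 0.239, with 1.37 for its 1 probe detected on every 10 Gy array. The groups did not overlap for these 3 members. For each of them the change of the summed signal was larger than that of any probe. With normexp the changes were 0.15 for miR-721, -0.04 for miR-680 and -0.15 for miR-714.

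miR-705 showed the same course, from 5.66, 4.79, 5.67 and 3.87, not detected, to 14.1, 13.9, 15.6 and 8.0, at least 1.2-fold higher (1.34 ± 0.23, and -0.13 with normexp). miR-697 changed by 0.62 ± 0.175 but its 1 probe detected on every 10 Gy array by 0.0938. Its call was lost with the same sign in 8 of 19 alternatives, among them leaving out 0 Gy replicate 2. It was lost with normexp too, where the change turned to -0.28. miR-677-3p, bright at both doses, went the other way. Its values were 19.8, 19.5, 18.8 and 19.3 at 0 Gy and 8.85, 6.76, 5.53 and 8.21 at 10 Gy, without overlap, a change of -1.42 ± 0.183, and it was lower in each of 20 alternatives.

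The other members of intestine differed by less. miR-690 read 261, 191, 306 and 207 at 0 Gy and 164, 211, 169 and 155 at 10 Gy, a change of -0.45 ± 0.196 with overlap. miR-709 read 341, 241, 265 and 198 against 273, 466, 251 and 287 (0.27 ± 0.232), and miR-706 read 32.2, 15, 18.8 and 7.47 against 10.2, 20.9, 10.1 and 11.2 (-0.37 ± 0.378), both with overlap. miR-712-5p (0.23 ± 0.183), miR-681 (0.58 ± 0.403) and miR-702-3p (0.33 ± 0.181) were not called, although the arrays of miR-702-3p did not overlap (3.66 to 4.3 at 0 Gy, 4.39 to 6.63 at 10 Gy).

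In all, 5 of the 12 members tested in intestine were called higher and 1 lower, beside a background of 41.8% of the 335 miRNAs tested (26% higher and 15.8% lower), and 7 of 12 did not overlap, beside 39.4%. Their median change was 0.46, where all tested miRNAs had 0.16. Since the range was chosen from this contrast, nothing is read from these counts. Scaling by the percentile over all miRNAs moved the median of all miRNAs to -0.36, and turned miR-702-3p (-0.18), miR-709 (-0.24) and miR-712-5p (-0.29). The members' calls then were 4 higher and 3 lower, beside 31.9% of all miRNAs called. Within slide rows 1 and 2 the changes were 2.46 and 2.27 for miR-721, 2.21 and 2.04 for miR-680, 2.40 and 2.05 for miR-714, 1.45 and 1.28 for miR-705, and -1.33 and -1.47 for miR-677-3p. The epithelial share of signal and the number of detected miRNAs, given above, also moved with dose, and their part in these changes was not tested.

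**Figure D3:**
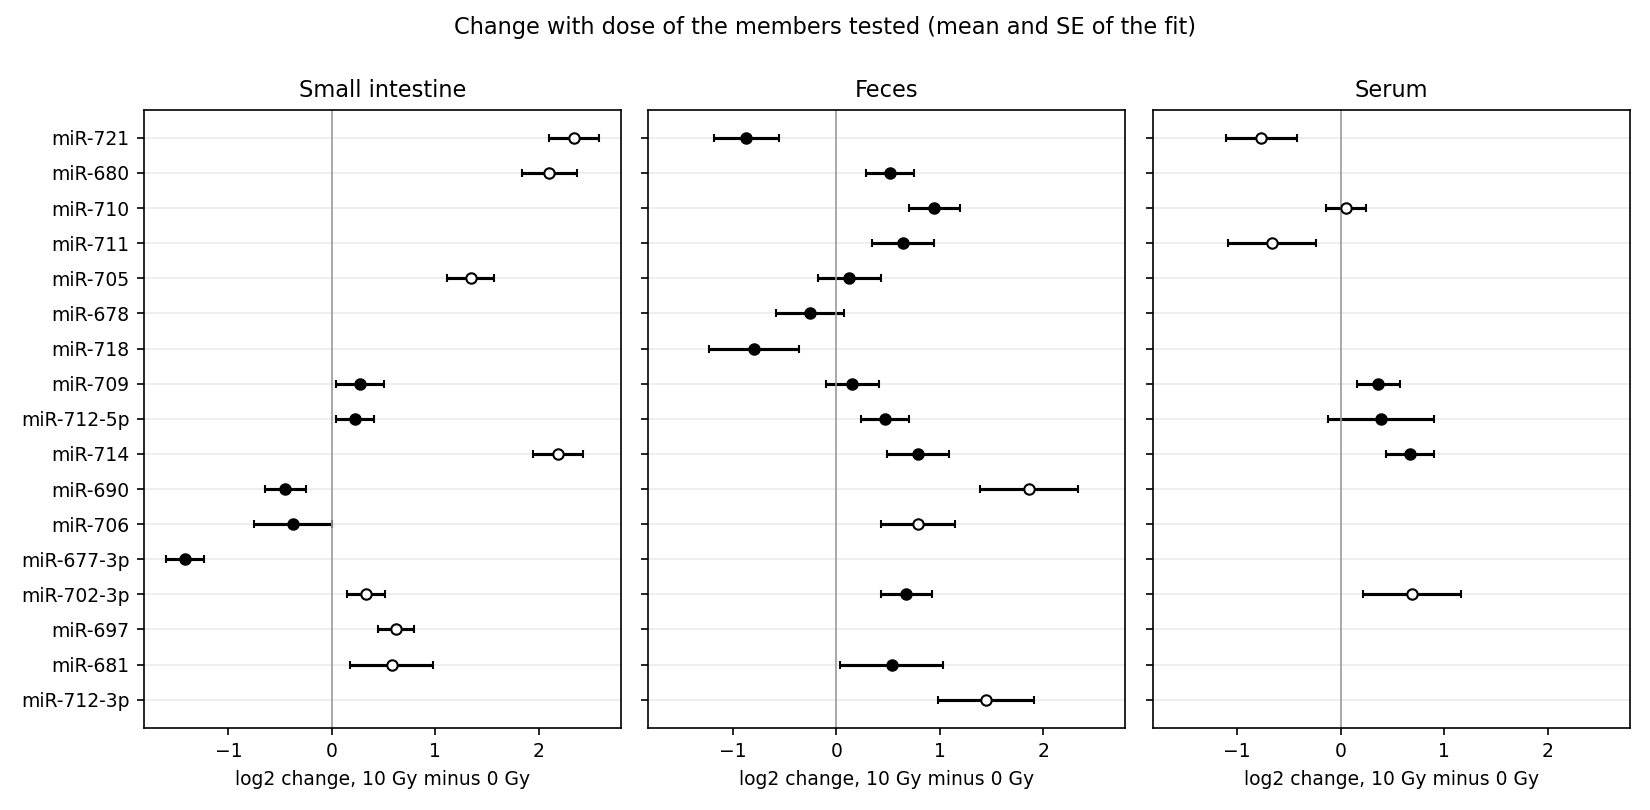
Change with dose (log2, 10 Gy minus 0 Gy) of the members tested in each sample type, as the fitted mean with its SE. Filled points mark members that all arrays of the comparison detected, and open points those that at least 1 array did not. miR-721 stands at 2.34 in intestine, -0.87 in feces and -0.77 in serum.

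In irradiated feces the signal of miR-721 was lower, with 285, 235, 473 and 189 at 0 Gy and 128, 178, 181 and 130 at 10 Gy. Those arrays did not overlap, the change was -0.87 ± 0.316, and the 4 probes gave -0.883 to -0.846. miR-680 was 212, 238, 206 and 335 at 0 Gy and 399, 349, 320 and 330 at 10 Gy, which overlap (0.52 ± 0.235). miR-705 (0.13 ± 0.305) and miR-678 (-0.25 ± 0.327) differed by less than their SE, and miR-718 by -0.80 ± 0.434 with overlap.

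Of the 15 members tested in feces, 2 were called higher and 0 lower, beside 7.54% of the 491 miRNAs tested (3.46% higher, 4.07% lower). These were miR-690 and miR-710. miR-690 was 4.35, 2.13, 1.59 and 5.32 at 0 Gy and 7.99, 8.32, 9.52 and 21.9 at 10 Gy, a change of 1.86 ± 0.472. miR-710 was 84.8, 90.9, 72.0 and 101 at 0 Gy and 163, 181, 123 and 213 at 10 Gy, a change of 0.95 ± 0.245. Neither overlapped between the doses, and 0 Gy replicate 2 did not detect miR-690. Both calls were fragile: miR-690 lost its call in 14 of 19 alternatives and miR-710 in 18 of 20, among them leaving out any 1 array other than 0 Gy replicate 4. Without that array 6 of the 15 members were called, but so were 30.9% of the 499 miRNAs then tested, so nothing is read from the 6. Within slide rows 1 and 2 the changes were 1.43 and 2.39 for miR-690, 0.98 and 1.00 for miR-710, and -0.76 and -0.89 for miR-721.

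Among the other feces members, 4 more did not overlap between doses, so that 6 of 15 did not, beside 29.1% of all tested miRNAs. They were miR-721, miR-702-3p (2.89 to 5.03 at 0 Gy, 5.51 to 7.72 at 10 Gy, 0.68 ± 0.249), miR-712-5p (10.0 to 14.3, then 15 to 21.2, 0.47 ± 0.234) and miR-712-3p, the other arm of that precursor (detected on 2 of 4 arrays at 0 Gy and 4 of 4 at 10 Gy, 1.45 ± 0.46). miR-714 (0.79 ± 0.3), miR-711 (0.64 ± 0.3), miR-706 (0.79 ± 0.356), miR-681 (0.54 ± 0.498) and miR-709 (0.15 ± 0.258) overlapped. The median change of the 15 was 0.54 beside 0.16 over all 491, and without scaling these were -0.11 and -0.49, with negative changes for miR-680 (-0.13), miR-681 (-0.11), miR-705 (-0.52), miR-709 (-0.49), miR-711 (-0.0060) and miR-712-5p (-0.18). As in intestine, the rule used this contrast.

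In serum no member of the 7 tested was called by limma after adjustment, beside 4.66% of the 193 miRNAs tested (1.04% higher and 3.63% lower). An unadjusted limma p under 0.05 was reached by 1 of the 7, beside 40 of the 193. miR-709 was 773 and 798 at 0 Gy and 1200, 913, 1050 and 908 at 10 Gy, a change of 0.36 ± 0.21 without overlap. miR-714 was 18.3 and 19.7, then 33.2, 31, 23.3 and 34.8 (0.67 ± 0.233), again without overlap. miR-721 was 41.2 and 26.4, then 24.4, 12.5, 24.1 and 19.4 (-0.77 ± 0.345), and was detected on 2 of the 4 irradiated arrays. These 3 of 7 did not overlap, beside 30.1% of all tested miRNAs.

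The other serum members overlapped: miR-702-3p changed by 0.69 ± 0.477 (limma adjusted p = 0.51), miR-712-5p by 0.39 ± 0.513 (adjusted p = 0.68), miR-710 by 0.05 ± 0.192 (adjusted p = 0.88) and miR-711 by -0.66 ± 0.424 (adjusted p = 0.48). Without 10 Gy replicate 1, miR-711 was called lower (-0.98, limma adjusted p = 0.032). In the main scaling the other irradiated arrays read 4.95, 5.03 and -1.61 against the serum floor of 4.04. Of these only replicate 3 detected miR-711, so nothing is read from that call. Within slide rows 1 and 2, each with 1 unirradiated array, the changes were 0.43 and 0.24 for miR-709, 0.80 and 0.48 for miR-714 and -1.25 and -0.34 for miR-721. Without scaling the median change of all serum miRNAs was -0.84, and those of miR-709 and miR-714 were -0.41 and -0.11, while normexp gave 0.12 for miR-721.

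miR-709 took 4.07% and 3.95% of the serum signal at 0 Gy and 7.05%, 5.45%, 6.26% and 5.58% at 10 Gy. Over the same arrays the 4 red blood cell markers together took 9.23% to 10.2% at 0 Gy and 3.36% to 4.77% at 10 Gy. Of these markers, miR-486a-5p was detected on 6 of 6 serum arrays and miR-451a on 2 of 2 and 1 of 4, while miR-144-3p and miR-16-5p were detected on none. The whole summed signal of serum was 45171 to 98273 at 0 Gy and 20862 to 52589 at 10 Gy. The part of these in the miR-709 values was not tested.

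miR-721 and the miRNAs that share its seed differed in which samples detected them, with some samples in common. In feces miR-721 was detected on 8 of 8 arrays, while miR-130a-3p and miR-301a-3p were detected on 0 of 8 and miR-130b-3p on 5 of 8, and in serum none of these 3 was detected. In intestine miR-130a-3p, miR-130b-3p and miR-301a-3p were detected on all 8 arrays, and miR-721 on the 4 irradiated ones, which thus detected all of them. miR-130c, miR-6341 and miR-6389, which have the seed too, were detected on no array. In intestine after 10 Gy, miR-130b-3p fell by 1.25 on the log2 scale (SE 0.194, limma adjusted p = 0.00044), without overlap. miR-130a-3p rose by 0.60 ± 0.191 (limma adjusted p = 0.023), but its arrays overlapped (90.5 to 131 at 0 Gy, 129 to 195 at 10 Gy). miR-301a-3p was -0.19 ± 0.179 (limma adjusted p = 0.43). The processing alternatives were not run for these relatives. The 4 probes of miR-721 gave 3.00 to 3.19 for feces against intestine, while those of miR-130a-3p gave -5.07 to -4.63.

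**Figure D4:**
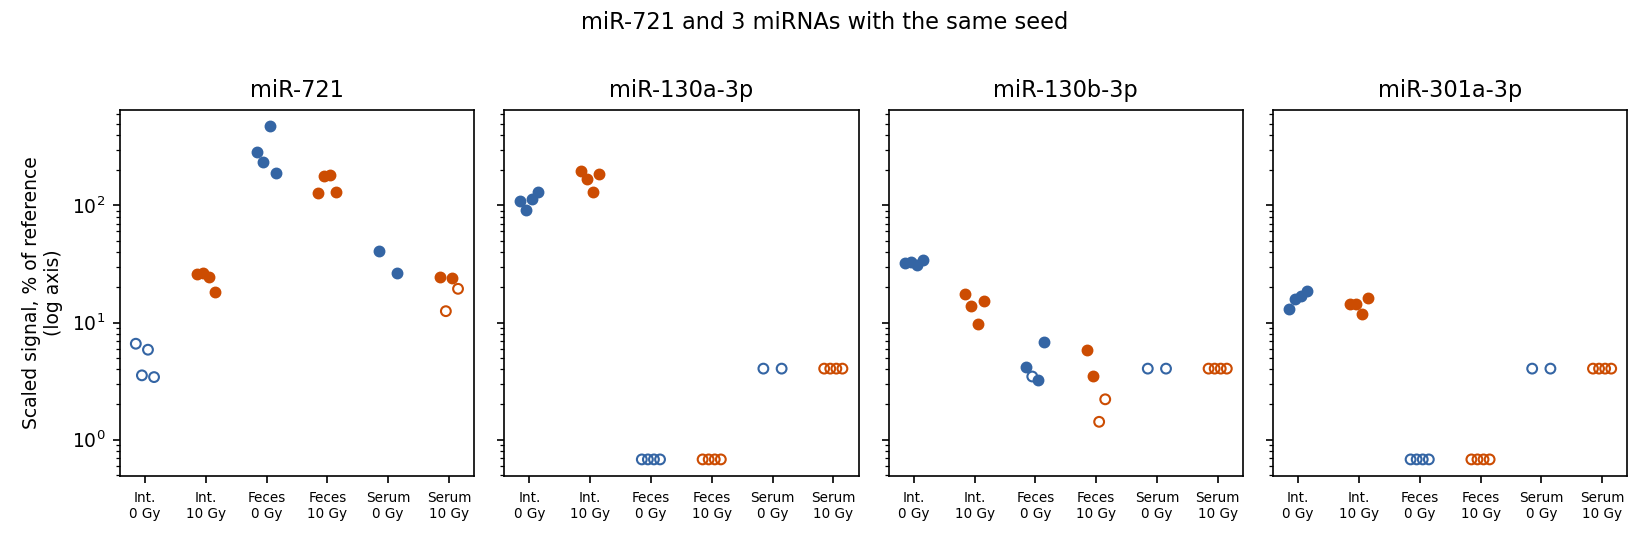
Scaled signal (percent of each array's reference within its sample type, log axis) of miR-721 and 3 miRNAs with the same seed, with 1 point per array, and open points where not detected. miR-130a-3p and miR-301a-3p were detected on all 8 intestine arrays and on none of feces or serum, where they are drawn at the floor, and miR-721 was detected on all 8 feces arrays.

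Runs of 4 or more G (GGGG, searched on the mature strand only) are in 6 of the 42 matched members (14.3%) and in 11.2% of the 1679 mature miRNAs of the table, and the median GC content is 52.4% and 52.2%. Of the 6, 5 are in the feces group, namely miR-680, miR-705, miR-710, miR-711 and miR-721, while miR-678 and miR-718 of that group have no such run. The group was made after the values were seen, so nothing is read from this overlap. Sequences were matched for 13 of the 17 members detected on every array of a group, less than the 80% asked for here, so a check of their base composition against that of the silent members is void. Over all tested miRNAs with a sequence, 56 of the 126 with such a run were called higher in unirradiated feces than in intestine (44.4%), and 19.5% of the 514 without one. Called lower were 22 of the 126 and 203 of the 514. Between unirradiated serum and intestine the shares called higher were 27.0% and 14.2%, and 19 of the 126 and 169 of the 514 were lower. In intestine 20 of 59 with a run were called higher after 10 Gy (33.9%), and 25% of the 232 without, while 9 and 40 were lower. After 10 Gy in feces 2.75% of 109 with a run and 2.86% of 315 without were higher, and 6 and 12 were lower. In serum 0 of 55 with a run and 0.909% of 110 without were higher, and 0 and 5 were lower. A match describes the letters only, and no test was made on it.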

How the data were processed

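Agilent mouse miRNA arrays of small intestine, serum and feces were used as deposited. Per the submitters' processing notes, the authors used Agilent Feature Extraction 11.5. Per the file headers, the deposited intensity (processed signal) is linear, background-subtracted and not normalized between arrays. The deposited 0 or 1 flags (another kind of value, per the file headers) mark spots well above background, outlying or saturated. The authors' series table holds the same values, with all 58594 spots of each array within 1% and column medians from -1.55 to 2.1, so its scale is linear and it is not centred.

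Non-outlying spots were averaged per probe and probes summed per miRNA (4 probes for 41 members, 2 for 9). Each array was scaled by the 75th percentile of those miRNAs that every array of its type detected (268 for intestine, 326 for feces and 121 for serum). Comparisons between types used the 81 detected on all 22 arrays. Values were raised to a floor, the median over arrays of the lowest detected value (1.81%, 0.678%, 4.04% and 1.17% of the reference), and taken to log2. The number of arrays limits the precision.

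Groups were compared with limma 3.58.1 (lmFit, eBayes) in R 4.3.3 over the miRNAs whose number of detecting arrays reached the size of the smaller group, with Benjamini-Hochberg adjustment and a threshold of 0.05. Where a group did not detect a miRNA on any array, the "at least" fold is the lowest over the detected probes. The limma step was tested on simulated data. The members and the lists of markers were chosen with earlier results of these data known. Values are given for each member detected on every array of at least 1 group, and for miRNAs outside the range that share a seed with one. Alternatives covered the background, scaling, filter, probe summary, blocks, and leaving out each array. Replicate numbers were not taken to pair samples.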

Additional observations from a re-analysis of the deposited data

Results flagged for a closer look

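The 10 Gy arrays of miR-721 all lay above the 0 Gy arrays in intestine and all below them in feces and serum, with changes of 2.34, -0.87 and -0.77 (log2, 10 Gy minus 0 Gy). The feces and serum changes were not called. Unirradiated intestine did not detect it, serum had 2 arrays at 0 Gy, and with normexp the changes were 0.15 in intestine and 0.12 in serum. The difference between sample types was not tested.

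Among 56 groups of 4 arrays examined for a value far from the other 3, 4 stood out, where chance gives about 1 in 20. miR-678 in irradiated feces read 33.2% of the reference in replicate 2, against 21.2% for the nearest array. miR-706 in irradiated intestine read 20.9% in replicate 2, against 11.2%. The number of members detected was 17 in irradiated intestine replicate 2, above the other 3, and 6 in unirradiated intestine replicate 1, where each of the others had 5. Any count that differs from 3 equal ones is flagged in this way, so nothing is read from the last of these.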

How the results depend on the processing

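In intestine 6 of 12 members were called, beside 41.8% of all miRNAs tested, and the share of all is given in brackets below. There was 1 with normexp background correction (27.2%) and 1 of 5 among miRNAs detected on every array (37.3%). Without scaling there were 9 (59.4%), without a filter 4 of 50 (1.7%), and with 1 array left out 5 to 6 (26.7% to 42.6%). In feces 2 of 15 were called (7.54%). There were 0 with normexp (0.611%), quantile normalization (6.72%), no scaling (4.07%), no filter (0.159%) or detection on every array (0.92%). With the slide row as a block (6.92%) or within slide row 2 (0%) there were 0 too. There was 1 with the percentile over all miRNAs (7.33%), and 0 to 6 with 1 array left out. The 6 came without 0 Gy replicate 4 (30.9%), and there were 0 without any other (0.382% to 6.27%). In serum 0 of 7 were called (4.66%), and 0 to 1 with 1 array left out, where 3 to 16 of all miRNAs were called. Between unirradiated feces and intestine 14 of 21 were called (59.5%), 2 among miRNAs detected on every array, and 13 to 14 with 1 left out. Between serum and intestine there were 9 of 21 (46.5%), then 3 with normexp, 2 with detection on every array, and 9 to 10 with 1 left out. The feces calls against intestine, 6 higher and 8 lower, split 1 and 19 with normexp, 7 and 6 with quantile or all-miRNA scaling, 14 and 3 without scaling, and 8 and 4 in a fit of these 2 groups. The serum difference in members detected ranged from -5 to -1 with 1 array left out.

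Among the members called, signs turned in intestine with normexp for miR-680 (-0.040), miR-697 (-0.28), miR-705 (-0.13) and miR-714 (-0.15). They turned between feces and intestine with normexp for miR-678 (-1.29), miR-710 (-0.62), miR-711 (-1.0) and miR-718 (-1.22). That of miR-705, which was not called there, turned with normexp too (-1.42). Without scaling, signs turned for miR-681 (1.62), miR-697 (0.45), miR-702-3p (1.26), miR-709 (0.82) and miR-712-5p (1.70). In the fit of 2 groups they turned for miR-681 (0.019) and miR-712-5p (0.012). The causes of these turns were not tested. The normexp alternative used an offset of 50, and detection on every array left 5 members to test in intestine. Over all miRNAs, calls ranged from 32 to 199 in intestine, 0 to 154 in feces and 0 to 24 in serum. They ranged from 121 to 662 between unirradiated feces and intestine and from 83 to 417 between unirradiated serum and intestine. Nothing is read from the members' counts apart from these.

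Deviations of arrays with the same replicate number correlated from -0.565 to 0.436 in intestine and from -0.429 to 0.396 in feces, and in serum at 0.278 and 0.44, so the numbers were not taken as pairs. With the replicate number as a block, calls were 6 in intestine (beside 40% of all miRNAs), 1 in feces (beside 8.35%) and 0 in serum. They were 15 between feces and intestine and 9 between serum and intestine. Signal over background limits the dim members: miR-697, miR-681, miR-712-3p and the 8 detected in part lie near the floor.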
